A study of Mus musculus with 11 samples.

Results

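The mitochondrial genome of the mouse encodes 37 genes, of which 13 make proteins, 2 make ribosomal RNAs (rRNAs) and 22 make transfer RNAs (tRNAs). They were taken as the rows of the retinal count files whose Ensembl ID has a mouse symbol starting with mt-, and all 37 were found among 47069 genes. Of these, 31 had a count in at least 1 library. The filter on low counts left 18188 genes for testing, among them 20 mitochondrial genes (9 protein, 2 rRNA and 9 tRNA genes).

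Mitochondrial DNA is a small circle that is transcribed from both strands into long precursors. The tRNA genes lie between most of the protein and rRNA genes, and the precursors are cut at the tRNAs into separate RNAs. The encoded proteins are core subunits of complexes I, III, IV and V of the respiratory chain and ATP synthase, whose remaining subunits come from nuclear genes, and both rRNAs belong to the mitochondrial ribosome. In the retina, photoreceptors hold dense mitochondria in their inner segments and ganglion cells along their unmyelinated axons.

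The libraries came from retinas of C57BL/6 mice at postnatal day 4 (P4) and day 8 (P8). Brn3b-Kir2.1 mice carried human Kir2.1 as a transgene joined to the fluorescent protein eYFP, behind a CAG promoter and a floxed STOP cassette that Brn3b-cre removes in ganglion cells. Kir2.1 is a potassium channel that quiets neurons. At P4 the wild type had 2 libraries and Kir2.1 had 3, and at P8 each genotype had 3. The labels conflict on 3 points. The protocol gives the later age as P11, names Brn3b-cre mice as controls where the genotype field says wild type, and describes whole retinas taken apart with no sorting where the source field names ganglion cells. The fields' genotypes and ages are used below. Nothing states that replicates came from separate animals, so p-values measure only the spread between these samples.

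Gene counts ranged from 9362215 to 12478838 per library. Kir2.1 P8 replicate 2 stood apart, with 31325 genes detected against 22609 to 24591 in the other 10 libraries, and 69.4% of its uniquely aligned records in no gene against 57.0% to 62.4%. Wild-type P4 replicate 2 also stood apart, with dividing cell markers (7 of 7 detected) at 855 CPM against 1920 to 2464 CPM in the other 4 P4 libraries. Its log CPM correlated across genes with those of the P8 libraries at 0.959 to 0.974, against 0.926 to 0.948 for the other P4 libraries. Rod markers (13 of 13 detected) summed to 865 to 1933 CPM (gene counts scaled to a common library size) in wild type and 969 to 1309 CPM in Kir2.1 at P4. At P8 the wild-type libraries differed widely, at 1513, 4003 and 8182 CPM in replicates 1 to 3, against 7534 to 8161 CPM in Kir2.1. The 14 ganglion cell markers, all detected, summed to 1373 and 1997 CPM in wild type and 442 to 1081 CPM in Kir2.1 at P4, and to 523 to 690 CPM at P8. In bulk samples, fewer cells of a type and less RNA per cell cannot be told apart. Mouse Kcnj2 was at 2.45 to 17.2 CPM over the 11 libraries, and since the transgene is human it does not check the genotype.

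Mitochondrial genes took 5.58% to 8.54% of gene counts in a library, and 84.0% to 87.7% of these counts were rRNA. At P4 the rRNA share was 5.31% and 5.52% in wild type and 7.49%, 6.03% and 5.99% in Kir2.1. At P8 it was 5.72%, 5.64% and 4.70% in wild type and 5.37%, 5.13% and 4.97% in Kir2.1. All 3 Kir2.1 libraries lay above both wild-type libraries at P4, and the genotypes overlapped at P8. The Kir2.1 P4 mean of 6.50% ± 0.857 (SD, n = 3) rested in part on replicate 1.

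The 13 protein genes together took a much smaller share. It was 0.836% and 0.837% in wild type and 1.04%, 0.986% and 0.946% in Kir2.1 at P4. At P8 the shares were 0.960%, 0.978% and 0.874% in wild type and 1.01%, 0.803% and 0.943% in Kir2.1. Again the P4 groups did not overlap and the P8 groups did, with Kir2.1 P8 replicate 2 the lowest of all libraries. The 22 tRNA genes took 0.0023% to 0.0047%, or 215 to 519 counts per library, so each tRNA value rests on few counts. The mean tRNA share was 0.0041% ± 0.00038 (SD, n = 2) in wild type and 0.0042% ± 0.00049 (n = 3) in Kir2.1 at P4, and 0.0032% ± 0.00034 and 0.0026% ± 0.00048 (n = 3 each) at P8.

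**Figure D1:**
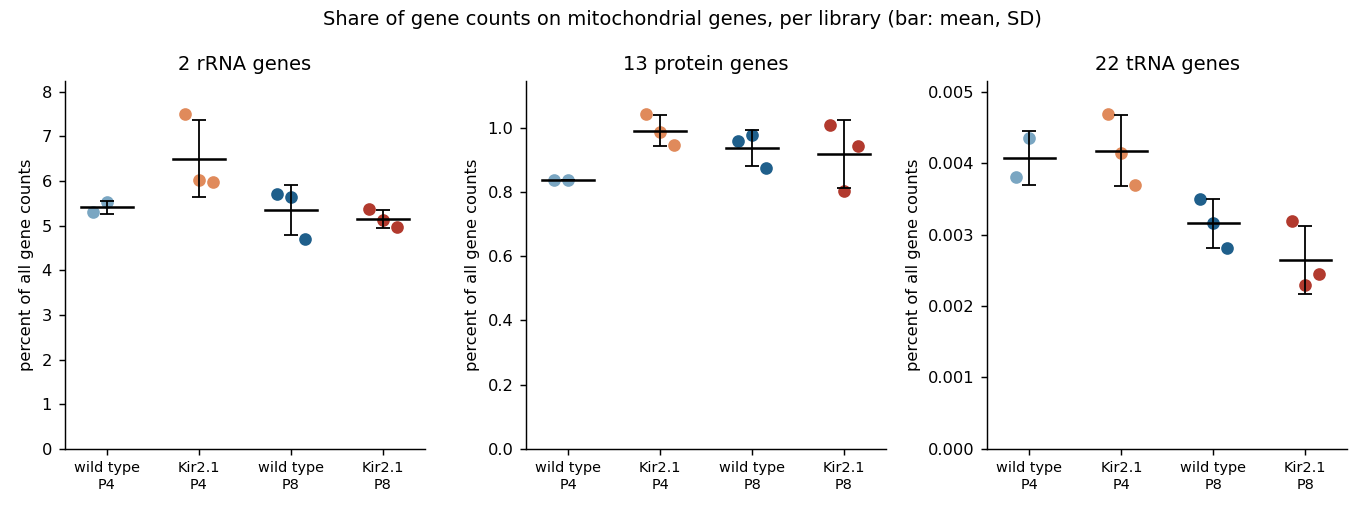
Percent of all gene counts (vertical axes) on the 2 rRNA, 13 protein and 22 tRNA genes in each library (points) by group, with the mean and SD as bars. The 3 Kir2.1 P4 libraries lie above both wild-type P4 libraries for rRNA and protein genes, and the P8 groups overlap in all 3 classes.

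The make-up of the mitochondrial counts was compared within libraries. Counts on the rRNA genes were 6.11 to 7.19 times those on the protein genes over the 5 libraries of P4 and 5.27 to 6.39 times over the 6 of P8, with overlap between the ages through Kir2.1 P8 replicate 2. The larger rRNA gene had 1.35 to 1.43 times the counts of the smaller in all 11 libraries. The ratio of mt-Nd5 to mt-Nd1 counts varied more, from 0.569 in wild-type P4 replicate 2 to 0.997 in wild-type P8 replicate 3. Of the protein counts, mt-Cytb, the cytochrome b of complex III, held a mean of 25.6%. mt-Co1, the catalytic subunit of complex IV, held 20.9% and mt-Nd1, a membrane subunit of complex I, held 19.9%.

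Levels of different genes were compared as CPM per kilobase of gene (CPM per kb), averaged over the 11 libraries. The rRNA genes stood first. mt-Rnr1, the rRNA of the small ribosomal subunit, was at 24681 ± 3398 CPM per kb (SD, n = 11) and mt-Rnr2, that of the large subunit, at 20704 ± 3059 CPM per kb. mt-Rnr1 was the higher in 11 of 11 libraries, and mt-Rnr2 was 9.97 times the highest protein gene.

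Among protein genes mt-Cytb (2076 ± 190 CPM per kb) and mt-Nd1 (1931 ± 243 CPM per kb) led and did not separate cleanly, mt-Cytb being the higher in 8 of 11 libraries. mt-Co1 followed at 1262 ± 152 CPM per kb, below mt-Nd1 in all 11. Other complex I subunits came next. mt-Nd2 was at 804 ± 87.8, mt-Nd5 at 735 ± 112 and mt-Nd4 at 605 ± 56.0 CPM per kb. mt-Nd2 exceeded mt-Nd5 in 8 of 11 libraries and mt-Nd5 exceeded mt-Nd4 in 10 of 11, so this order is not firm at each step. mt-Nd6, also of complex I and the single protein gene on the opposite strand, was at 205 ± 35.5 CPM per kb, below mt-Nd4 in every library.

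The remaining 6 protein genes were far lower in these counts. Records whose alignment was not unique, 15466886 to 20692625 per library, are not in the counts. Their part in the low values was not tested. mt-Nd3 of complex I was at 22.2 ± 6.18 CPM per kb. mt-Atp6 and mt-Atp8 of ATP synthase had mean levels of 1.93 and 0.802 CPM per kb, and mt-Co3 and mt-Co2 of complex IV had 0.627 and 0.472 CPM per kb. The last 3 of these did not separate, since mt-Atp8 exceeded mt-Co3 in 6 of 11 libraries and mt-Co3 exceeded mt-Co2 in 8 of 11. mt-Nd4l of complex I had no count in any library. mt-Co2 had 0 to 9 counts per library, mt-Co3 1 to 9, mt-Atp8 0 to 8, mt-Atp6 5 to 23 and mt-Nd3 50 to 142.

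**Figure D2:**
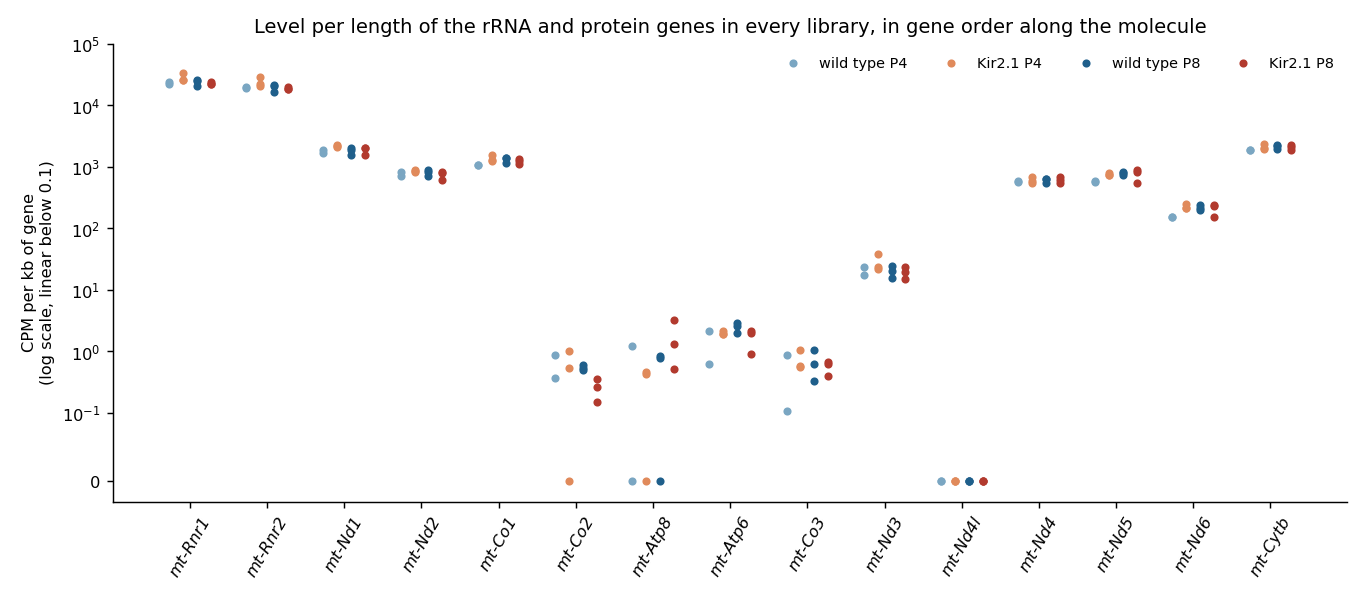
CPM per kb of gene (vertical, log scale that turns linear below 0.1) for the 2 rRNA and 13 protein genes, in their order along the molecule, with 1 point per library coloured by group. A run of 6 neighbouring protein genes from mt-Co2 to mt-Nd4l sits below 40 CPM per kb in every library, while the genes on both sides exceed 150 CPM per kb.

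The 6 low genes are neighbours. With 5 tRNA genes they fill a stretch of the molecule from mt-Ts1 to mt-Nd4l, inside chrM:6390-11042 (GRCm38), and no gene in this stretch had a mean above 89.4 counts per library. The stretch has relatives in the nuclear genome. When the mitochondrial genes were aligned to the annotated nuclear transcripts of GENCODE, 7 unprocessed pseudogenes on the minus strand of chromosome 1, within chr1:24611535-24616197, matched them in the same order. Gm28661 matched 681 bases of mt-Co2, Gm10925 matched 678 bases of mt-Atp6, Gm28437 matched 783 bases of mt-Co3 and Gm10222 matched 294 bases of mt-Nd4l, each at 100% identity. Gm28439 matched the first 876 bases of mt-Nd4 at 100%. Counts on the identical copies differed widely, at 118 to 247 per library for Gm28437, 10 to 29 for Gm10925, 3 to 17 for Gm28661, 0 to 4 for Gm10222 and 0 to 1 for Gm28439. The spacing of the 7 copies equalled that of the genes to within 1 base. Bases between the copies, where mt-Atp8 begins and the tRNA genes lie, are in no annotated transcript and were not examined.

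The chromosome 1 copies carry few differences from the genes. The first 60 bases of mt-Co2 (chrM:7013-7072, plus strand), its chromosome 1 copy Gm28661 and a second copy on chromosome 2, Gm13341 (95.9% identity over 684 aligned positions), are shown because mt-Co2 had the lowest level among the protein genes with any count. Capitals mark bases that differ between mt-Co2 and Gm13341, which are C25T and G57A counted from the first base of mt-Co2.
mt-Co2: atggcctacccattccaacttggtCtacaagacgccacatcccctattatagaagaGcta
Gm28661: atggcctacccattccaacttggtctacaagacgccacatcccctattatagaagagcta
Gm13341: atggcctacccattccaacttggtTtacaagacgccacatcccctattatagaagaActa
mt-Co2 and Gm28661 read the same throughout this stretch.

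mt-Nd3 is shown because it had the highest level of the 6 low genes. Its copy Gm28438, which had 3 to 18 counts per library, differed from it at 1 of 345 aligned bases, T3C counted from the first base of mt-Nd3 (capitals, chrM:9459-9519, plus strand).
mt-Nd3: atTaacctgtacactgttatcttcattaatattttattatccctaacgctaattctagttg
Gm28438: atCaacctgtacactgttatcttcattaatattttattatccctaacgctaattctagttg
mt-Co1, at the edge of the stretch, is copied only in its last 483 bases by Gm29216, with 1 difference, A1066T. That base and its flank (chrM:6390-6450, plus strand) read as follows, with the differing base in capitals.
mt-Co1: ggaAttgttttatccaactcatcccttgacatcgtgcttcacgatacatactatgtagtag
Gm29216: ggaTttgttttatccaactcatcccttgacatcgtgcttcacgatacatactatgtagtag
A second copy, Gm13340 on chromosome 2, spans all 1545 bases of mt-Co1 at 97.6% identity.

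The share of a gene's 50-base windows with no exact match in any annotated nuclear transcript was also taken. It was 0% for mt-Co2, 0.136% for mt-Co3, 0.475% for mt-Atp6, 1.21% for mt-Nd4l and 2.01% for mt-Nd3. It was 37.8% for mt-Nd4 and 48.9% for mt-Co1, the genes copied in part. It was 100% for mt-Nd1, mt-Nd6, mt-Cytb and mt-Rnr1, 99.0% for mt-Rnr2, 92.4% for mt-Nd5 and 91.8% for mt-Nd2. It was also 100% for mt-Atp8, which had 0 to 8 counts per library.

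mt-Atp8 also shares its end with mt-Atp6. The shared 43 bases (chrM:7927-7969, plus strand) are shown because reads confined to them belong to both genes, with the start codon of mt-Atp6 in capitals.
Overlap: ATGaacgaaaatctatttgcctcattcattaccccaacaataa
Of the 13 protein genes, 10 share at least 1 base with a neighbour. mt-Nd5 and mt-Nd6, on opposite strands, share 14 bases. The strand setting of the counting is not given in the sources used here, so reads from the 2 strands cannot be told apart at any of these genes.

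The authors' deposited table for P4, which gives a mean normalised count per gene over its libraries, held far higher values for the low genes. mt-Co2 stood at 723 in the authors' deposited table and at a mean of 4.43 counts in the P4 count files. mt-Atp6 stood at 1249 in the authors' deposited table against 13.8 counts, mt-Co3 at 548 against 5.82 counts and mt-Atp8 at 191 against 1.01 counts. mt-Nd4l stood at 158 in the authors' deposited table and had no count in the files. For mt-Nd3 the value in the authors' deposited table was 1.78 times the count-file mean.

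At P8 the authors' deposited table gave 654 for mt-Co2, 1108 for mt-Atp6 and 133 for mt-Nd4l, so the gap was there at both ages. For mt-Rnr1, mt-Rnr2, mt-Nd1, mt-Nd2, mt-Nd4, mt-Nd5, mt-Nd6, mt-Cytb and mt-Co1 the authors' deposited table lay between 0.830 and 1.09 times the count-file mean at both ages. Among nuclear genes with a mean of at least 10 in the authors' deposited table, 3.82% at P4 and 3.77% at P8 exceeded their count-file mean by more than 5 times. The median of this ratio over the same nuclear genes was 0.753 at P4 and 0.892 at P8. The 2 sources therefore hold different values for the 6 low genes, and for nuclear genes too. How the reads behind the tables were counted is not given in the sources used here, and the part of nuclear copies in the difference was not tested. Per kb, the low genes stayed below the genes that flank them in the authors' deposited table as well, at 1056 for mt-Co2 and 1833 for mt-Atp6 against 15191 for mt-Co1 and 6466 for mt-Nd4 at P4.

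**Figure D3:**
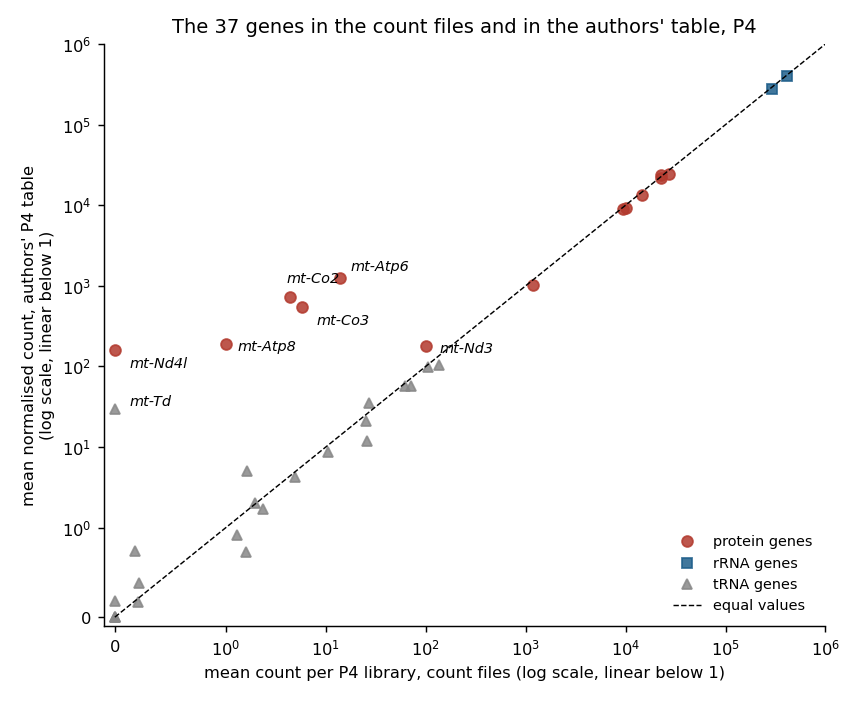
Mean count per P4 library in the count files (horizontal) and mean normalised count in the authors' deposited P4 table (vertical) for all 37 genes, both on log scales that turn linear below 1, with a dashed line where both are equal. Most genes lie near the line, while mt-Co2, mt-Co3, mt-Atp6, mt-Atp8, mt-Nd4l and mt-Td lie far above it.

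The tRNA genes, which are 59 to 75 bases long, split into 8 with a mean of at least 10 counts per library and 14 below it. Of the 22 tRNA genes, 14 have no gap to at least 1 neighbour, among them mt-Tm, mt-Tl1 and mt-Tv. Counts from a cut tRNA and from an uncut precursor cannot be told apart here. mt-Tm, the methionine tRNA gene, was highest at 139 ± 43.2 CPM per kb (SD, n = 11). mt-Tl1, a leucine tRNA gene just behind mt-Rnr2, stood at 92.2 ± 40.4, mt-Tv (valine) at 81.2 ± 23.6 and mt-Ti (isoleucine) at 63.2 ± 23.3 CPM per kb. mt-Tf (phenylalanine), mt-Tp (proline), mt-Tq (glutamine) and mt-Tt (threonine) lay between 15.6 and 29.4 CPM per kb. The order is loose, since mt-Tl1 exceeded mt-Tv in 7 of 11 libraries and mt-Tf exceeded mt-Tp in 5 of 11. Of the other 14 tRNA genes, 5 (mt-Tn, mt-Ty, mt-Ts1, mt-Td and mt-Th) had no count and 9 had at most 25 counts in any library. mt-Td had a mean of 29.5 in the authors' deposited table at P4 and 30.2 at P8.

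The comparison of genotypes at P4 asked how the retina differs when ganglion cells express Kir2.1. Mitochondrial rRNA and protein genes had higher values in Kir2.1, and no gene passed the test. mt-Rnr1 was at 21725 and 23073 CPM in wild type and at 31829, 24548 and 24722 CPM in Kir2.1. mt-Rnr2 was at 30741 and 31604 CPM in wild type and at 45243, 33096 and 35234 CPM in Kir2.1. Neither gene overlapped between the groups, and Kir2.1 replicate 1 was the highest for both.

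Log2 fold changes of Kir2.1 over wild type at P4 were 0.27 ± 0.13 (SE) for mt-Rnr1 (edgeR adjusted p = 0.695) and 0.28 ± 0.14 for mt-Rnr2 (edgeR adjusted p = 0.704). Without Kir2.1 replicate 1 they were 0.14 each, and without wild-type replicate 2 the rRNA median was 0.31 and the protein median 0.33. Among protein genes mt-Nd6 had the highest value. It was at 80.4 and 79.5 CPM in wild type and at 112, 128 and 111 CPM in Kir2.1, with a log2 fold change of 0.55 ± 0.17 (edgeR adjusted p = 0.677). The lowest was mt-Nd4, at 803 and 797 CPM in wild type and at 933, 804 and 753 CPM in Kir2.1, with a log2 fold change of 0.05 ± 0.14. mt-Nd6 was thus separated between the groups and mt-Nd4 overlapped.

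Fold changes were positive for 9 of 9 protein genes tested (median log2 fold change 0.34), 2 of 2 rRNA genes (0.28) and 4 of 9 tRNA genes (-0.09), beside a median of 0.01 over all genes tested. At an adjusted p under 0.05 edgeR called 0 mitochondrial genes and 0% of all genes, and DESeq2 also called 0 mitochondrial genes. At an unadjusted p under 0.05, edgeR had 4 mitochondrial genes, all higher in Kir2.1 (mt-Tl1, mt-Co1, mt-Nd5 and mt-Nd6), against 2.5% of all genes higher and 7.22% in either direction. Every Kir2.1 library exceeded every wild-type library at 6 of 9 protein genes, both rRNA genes and 2 of 9 tRNA genes (mt-Tv and mt-Tl1), and 12.4% of all genes did so. Every Kir2.1 library lay below every wild-type library at mt-Tf and mt-Tt, and 14.4% of all genes did so.

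mt-Tl1 had the largest positive value at P4. It was at 5.97 and 5.83 CPM in wild type and at 11.6, 8.97 and 12.7 CPM in Kir2.1, with no overlap. The log2 fold change was 0.91 ± 0.34 (edgeR adjusted p = 0.677), from 69 and 70 counts in wild type and 117 to 145 counts in Kir2.1. The gene (chrM:2676-2750, plus strand) is shown whole because it later gave the single call among the 37 genes.
mt-Tl1: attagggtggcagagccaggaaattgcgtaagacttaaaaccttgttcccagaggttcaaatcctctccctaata

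The authors' deposited table for P4 had the other sign for most of these genes. There, of 21 mitochondrial genes with an adjusted p in the authors' deposited table, 18 were lower in Kir2.1 and 0 passed, the smallest adjusted p being 0.153, with 2.27% of all its genes past 0.05. mt-Rnr1 had a log2 fold change of -0.20 and mt-Nd6 one of -0.14 in the authors' deposited table. The direction at P4 therefore depends on the source of the values. Ganglion cell marker sums were lower in Kir2.1 at P4, as given above. Mueller glia markers (7 of 7 tested) summed to 1181 and 1195 CPM in wild type and 1366 to 1680 CPM in Kir2.1, with no overlap, a median log2 fold change of 0.28 and 0 called. Of 8 bipolar cell markers 6 were negative (median -1.10) and 0 called, and their sums overlapped. All 7 dividing cell markers (median 0.31) and all 7 microglia markers (0.26) were positive. Of 13 rod markers 10 were negative (-0.32), and of 7 vascular cell markers 6 were negative (-0.59). None of these 4 lists had a marker called. The part of these cells in the mitochondrial values was not tested.

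**Figure D4:**
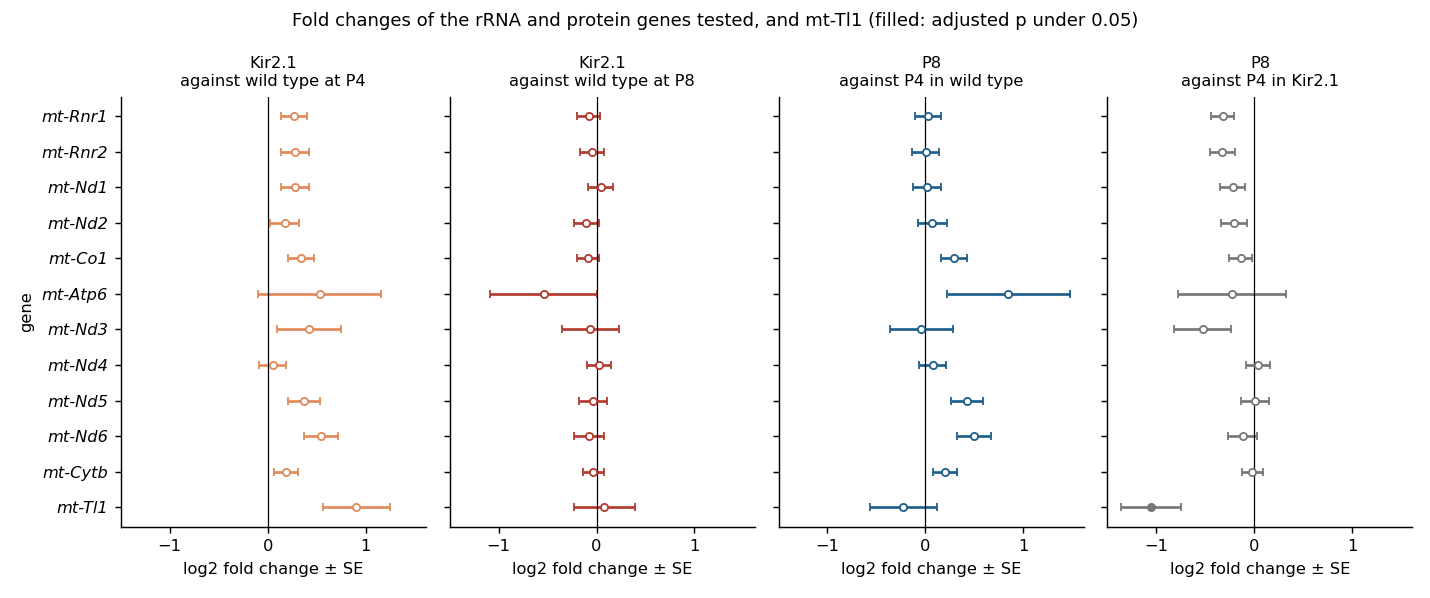
Log2 fold change with its SE (horizontal) for the 11 rRNA and protein genes tested and mt-Tl1 in 4 comparisons (panels), filled where the edgeR adjusted p is under 0.05. The P4 genotype panel lies to the right of 0 for all 12 genes, and the single filled point is mt-Tl1 in P8 against P4 in Kir2.1.

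At P8 the genotypes were close. mt-Rnr1 was at 25010, 23928 and 19551 CPM in wild type and at 22638, 21048 and 21204 CPM in Kir2.1, and its log2 fold change was -0.08 ± 0.12 (SE, edgeR adjusted p = 0.882). mt-Rnr2 had a log2 fold change of -0.05 ± 0.12 (edgeR adjusted p = 0.944). Wild-type replicate 3, the library with the most rod marker counts of its group, held the lowest rRNA values of the 6, and the groups overlapped for both genes. The part of rods in this was not tested.

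Among protein genes at P8 the highest value was that of mt-Nd1, with a log2 fold change of 0.04 ± 0.13 (SE), and the lowest that of mt-Atp6, at -0.54 ± 0.55. mt-Atp6 rested on 6 to 23 counts per library, and its value was -0.26 without Kir2.1 replicate 2. mt-Tl1 was at 4.57, 5.01 and 5.52 CPM in wild type and at 8.10, 4.17 and 3.65 CPM in Kir2.1, so the Kir2.1 values lay on both sides of wild type. Fold changes were positive for 2 of 9 protein genes, 0 of 2 rRNA genes and 2 of 9 tRNA genes, with a median log2 fold change of -0.06 for protein genes beside 0.00 over all genes.

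edgeR called 0 mitochondrial genes and 0% of all genes at P8, with 0 mitochondrial genes and 6.82% of all genes at an unadjusted p under 0.05, and DESeq2 called 0 mitochondrial genes. The groups did not overlap at mt-Tp, where every Kir2.1 library was the lower, and 5.11% of all genes did so. Without Kir2.1 replicate 2, the library that stood apart, 7 of 9 protein genes were positive with a median of 0.09. The sign of the protein median at P8 therefore rests on that library. The rRNA median turned to 0.0066 without wild-type replicate 1. In the authors' deposited table for P8, 17 of 19 mitochondrial genes with an adjusted p were lower in Kir2.1 and 0 passed, against 7.27% of all its genes.

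Whether the genotype difference changed between the ages was tested as an interaction. All 9 protein genes and both rRNA genes had a smaller Kir2.1 value at P8 than at P4, and no difference passed. The interaction was -0.35 ± 0.18 (SE, log2) for mt-Rnr1 and -0.33 ± 0.19 for mt-Rnr2, each with an edgeR adjusted p of 1.0. Without Kir2.1 P4 replicate 1 they were -0.23 and -0.19. Over the protein genes it ran from -1.07 ± 0.83 at mt-Atp6 to -0.03 ± 0.18 at mt-Nd4, with a median of -0.41 beside -0.0049 for all genes. edgeR called 0% of all genes here, with 2 mitochondrial genes, both negative (mt-Co1 and mt-Nd6), at an unadjusted p under 0.05 against 1.29% of all genes negative and 3.09% in either direction, and DESeq2 called 0 mitochondrial genes. Without Kir2.1 P8 replicate 2 the protein median was -0.23, without Kir2.1 P4 replicate 1 it was -0.26 and without wild-type P4 replicate 2 it was -0.39. The mt-Atp6 value went to -2.19 without wild-type P4 replicate 1 and to -0.44 without replicate 2, which held 5 counts of that gene. Both genotype comparisons enter each interaction value, so it is not separate from them. All 13 rod, 14 ganglion cell and 8 bipolar cell markers were positive in the interaction (medians 1.14, 0.97 and 1.41), with 0 called. Of 8 amacrine cell markers 6 were negative (median -0.50), also with 0 called. The part of these cells in the interaction of the mitochondrial genes was not tested.

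The ages were compared within each genotype. In wild type the rRNA genes had nearly the same values at P8 as at P4, and 8 of 9 protein genes had higher ones without passing the test. The log2 fold change of P8 over P4 was 0.03 ± 0.13 (SE) for mt-Rnr1 and 0.00 ± 0.14 for mt-Rnr2. Protein genes ran from -0.04 ± 0.32 at mt-Nd3 to 0.84 ± 0.63 at mt-Atp6, with a median of 0.20 beside 0.03 over all genes. Without wild-type P4 replicate 2 the protein median was 0.20 and the rRNA median 0.05. For mt-Atp6, leaving out wild-type P4 replicate 1 gave 1.97 and leaving out replicate 2 gave 0.22. edgeR and DESeq2 each called 0 mitochondrial genes, while edgeR called 4.39% of all genes and DESeq2 called 1580 genes. With no filter on low counts edgeR called 1, mt-Nd5, and 2058 of all genes. mt-Co1, mt-Nd5 and mt-Nd6 had higher values at an unadjusted p under 0.05, as did 8.74% of all genes, with 19.6% in either direction. For mt-Co1, mt-Nd5, mt-Nd6 and mt-Cytb every P8 library exceeded every P4 library, and 14.2% of all genes did so. For mt-Tl1 and mt-Tq every P8 library lay below every P4 library, and 16.9% of all genes did so. In the same comparison edgeR called ganglion cell markers (11 of 14) and dividing cell markers (6 of 7) lower and 0 of 13 rod markers, of which 13 were higher at an unadjusted p under 0.05. Of 8 bipolar cell markers edgeR called 1 higher, and 7 were higher at an unadjusted p under 0.05. All 7 microglia markers were lower, with 0 called and 4 at an unadjusted p under 0.05. Their part in the wild-type values was not tested.

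In Kir2.1 retinas mt-Tl1 fell from P4 to P8. Its P4 values of 11.6, 8.97 and 12.7 CPM all lay above its P8 values of 8.10, 4.17 and 3.65 CPM. The log2 fold change was -1.05 ± 0.31 (SE, edgeR adjusted p = 0.0345), and DESeq2 called it too, among 3793 genes called in all. It was the 1 mitochondrial gene called of 20 tested, while 8.73% of all genes were called lower and 16.7% in either direction. At an unadjusted p under 0.05 it was joined by mt-Rnr1, mt-Rnr2 and mt-Ti, all lower, against 14.9% of all genes lower and 29.7% in either direction. The call was lost, with the fold change between -1.04 and -0.84, when Kir2.1 P4 replicate 1 or 3 or Kir2.1 P8 replicate 2 or 3 was left out (edgeR adjusted p from 0.0917 to 0.131). In wild type the log2 fold change of mt-Tl1 was -0.23 ± 0.34, and the difference between the genotypes, -0.83 ± 0.46, did not pass (edgeR adjusted p = 1.0). That difference ran from -1.28 without Kir2.1 P8 replicate 1 to -0.62 without Kir2.1 P8 replicate 3.

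Both rRNA genes had lower values at P8 in Kir2.1, with no overlap of the groups. The log2 fold change was -0.32 ± 0.12 (SE) for mt-Rnr1 (edgeR adjusted p = 0.0848) and -0.32 ± 0.13 for mt-Rnr2 (edgeR adjusted p = 0.10), so neither passed. Without Kir2.1 P4 replicate 1 these were -0.21 and -0.20. With no filter on low counts both passed, at edgeR adjusted p = 0.0057 and 0.0035, among 3661 genes called in all. mt-Nd1, mt-Tl1 and mt-Ti were separated in the same way, and so were 18.7% of all genes.

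Protein genes ran from -0.53 ± 0.29 (SE) at mt-Nd3 to 0.04 ± 0.12 at mt-Nd4 in this comparison, with a median log2 fold change of -0.14 beside 0.00 over all genes. mt-Nd3 was at -0.27 without Kir2.1 P4 replicate 1. Of the 9, 2 were positive, and 5 without Kir2.1 P8 replicate 2, with a median of 0.05. Rod markers rose from P4 to P8 in Kir2.1 (13 of 13 called), as did bipolar cell markers (7 of 8), while dividing cell markers (7 of 7) and ganglion cell markers (11 of 14, with 2 higher) fell. Their part in the mitochondrial values was not tested.

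Nuclear genes supply the rest of the respiratory chain, and many of them rose with age in Kir2.1. The list held 76 nuclear genes of complexes I to V, called nuclear subunits here, although Atpif1 among them encodes the inhibitory factor of ATP synthase. Of these, all tested, edgeR called 35 higher and 0 lower at P8, with 74 of 76 positive and a median log2 fold change of 0.45. Higher calls made up 7.93% of all genes. Among the 36 complex I subunits 16 rose, such as Ndufb9 (0.84 ± 0.13 SE, edgeR adjusted p = 0.0011) and Ndufv3 (0.78 ± 0.16), both accessory subunits. In complex II, which has no mitochondrial subunit, 1 of 4 rose, the flavoprotein Sdha (0.42 ± 0.12). In complex III 5 of 9 rose, with Uqcr10 (0.74 ± 0.15) and Uqcrq (0.66 ± 0.18) among them.

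Complex IV had 8 of 11 nuclear subunits called, with Ndufa4 at 1.01 ± 0.17 and Cox6c at 0.84 ± 0.16 (SE, log2). Of 16 ATP synthase genes, Atpif1 included, 5 rose, such as Atp5g3 (0.58 ± 0.12), a subunit of the rotating ring, and Atp5o (0.52 ± 0.11), part of the stalk. Of the genes named for complexes I to V here, Sdha, Uqcrq and Atp5o lost their call without Kir2.1 P4 replicate 1, with log2 fold changes of 0.34, 0.53 and 0.47. Sdha kept its call only without Kir2.1 P4 replicate 2, and Uqcrq only without Kir2.1 P8 replicate 2. The count of 35 became 13 without Kir2.1 P4 replicate 1 and 30 without Kir2.1 P8 replicate 2. In wild type 1 nuclear subunit was called at P8 against P4, Atp5l (1.38 ± 0.31, edgeR adjusted p = 0.027), against 0.803% of all genes called higher, with 68 of 76 positive and a median of 0.17. The call of Atp5l was lost without wild-type P4 replicate 1 or 2 or wild-type P8 replicate 2. With replicate number as a block the call of Atp5l was lost as well. The difference between the genotypes in these age changes was tested as the interaction, where edgeR called 0 of 76 (68 of 76 positive, median 0.28, smallest adjusted p = 1.0). At an unadjusted p under 0.05, 10 were higher and 1 lower, against 1.8% of all genes higher and 1.29% lower. The rise in Kir2.1 stood beside the rise of the rod markers, and the part of rods in it was not tested.

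Between genotypes at P4 the nuclear subunits had mostly negative values, with 69 of 76 negative, a median log2 fold change of -0.24 and 0 called by edgeR. At an unadjusted p under 0.05, 22 were lower and 1 higher, against 4.72% of all genes lower and 2.5% higher. All 14 ganglion cell markers were negative in the same comparison (median -1.15, 10 at an unadjusted p under 0.05, 0 called), and their part in the nuclear values and in the balance with the mitochondrial genes was not tested. DESeq2 called 1 of the 76 and 33 of all genes tested. In the authors' deposited table for P4, 46 of 75 were lower with a median of -0.06 and 0 called, so that there both these and most mitochondrial genes were lower in Kir2.1. At P8 the median was 0.02 with 44 of 76 positive and 0 called, and with 0 at an unadjusted p under 0.05, against 6.82% of all genes.

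The balance of both genomes can be read within a library. Summed CPM of the 13 mitochondrial protein genes was 1.75 and 1.78 times that of the 76 nuclear subunits in wild type at P4 and 2.84, 2.30 and 2.22 times in Kir2.1. At P8 it was 1.93, 1.9 and 1.54 times in wild type and 1.75, 1.57 and 1.75 times in Kir2.1. The 3 Kir2.1 P4 libraries stood above the other 8 in the count files. In the authors' deposited table for P4 all 13 protein genes had negative values, and 0 passed. Examples were mt-Nd1 at a log2 fold change of -0.22 ± 0.18 (SE), mt-Co1 at -0.16 ± 0.20 and mt-Cytb at -0.19 ± 0.18. The nuclear median there was -0.06, and mt-Nd5 lay above it at -0.03 ± 0.19. That source gives no values per library, so this ratio cannot be formed from it. The higher ratio of Kir2.1 at P4 is therefore known from the count files alone. The 6 low protein genes add little to the ratio, since the count files hold few counts for them.

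**Figure D5:**
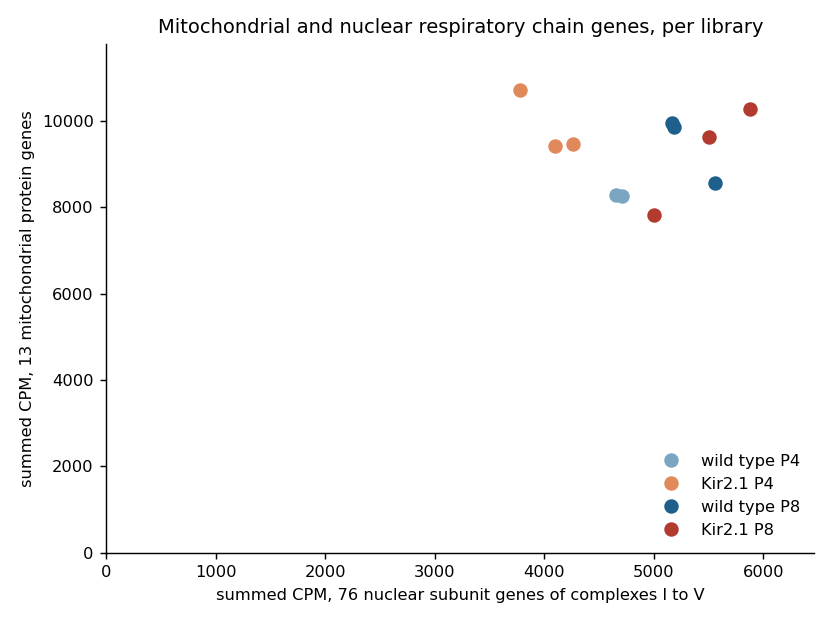
Summed CPM of the 76 nuclear subunit genes (horizontal) and of the 13 mitochondrial protein genes (vertical), 1 point per library, coloured by group. The 3 Kir2.1 P4 libraries have the lowest nuclear sums, 3779 to 4263 CPM, with mitochondrial sums of 9429 to 10713 CPM, all from the count files.

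Genes that copy, transcribe and translate mitochondrial DNA were given by list. Of 18 genes of mitochondrial DNA transcription and replication, edgeR called 1 higher and 2 lower at P8 against P4 in Kir2.1, the same share as the 16.7% of all genes called. Ppargc1a, a coactivator of mitochondrial biogenesis, rose by 0.80 ± 0.18 (SE, log2, edgeR adjusted p = 0.0115). Polg, the mitochondrial DNA polymerase, fell by 0.53 ± 0.11 (edgeR adjusted p = 0.0073), and Twnk, the replicative helicase, fell by 0.59 ± 0.17 (edgeR adjusted p = 0.0373). Without Kir2.1 P4 replicate 1 the calls of Ppargc1a (0.73) and Twnk (-0.58) were lost. Ppargc1a was also lost without Kir2.1 P4 replicate 3 (0.68), and Twnk without Kir2.1 P4 replicate 2 or any Kir2.1 P8 library. With no filter on low counts Twnk was not called either (edgeR adjusted p = 0.0678), nor was it with replicate number as a block.

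Of the 77 mitochondrial ribosomal protein genes tested, which join the mt-Rnr1 and mt-Rnr2 RNAs, 6 rose in that comparison, led by Mrpl49 (1.15 ± 0.26 SE, log2) and Mrpl41 (0.88 ± 0.17), and 0 fell, close to the 7.93% of all genes called higher. Of 19 tRNA synthetases of mitochondria 1 rose, Rars2 for arginine (0.45 ± 0.13), which is below that share. Without Kir2.1 P4 replicate 1 the calls of Mrpl49 (0.92) and Rars2 (0.36) were lost, and Rars2 was lost without any 1 of the other 5 Kir2.1 libraries and with no filter (edgeR adjusted p = 0.189). Of 22 genes of mitochondrial RNA processing and stability 0 were called, with 6 at an unadjusted p under 0.05, near the 29.7% of all genes. None of these 4 lists had a gene called by edgeR between genotypes at either age or in wild type with age, where edgeR called 0%, 0% and 4.39% of all genes. At P4, at an unadjusted p under 0.05, the ribosomal list had 1 gene higher and 3 lower in Kir2.1, the RNA processing list 1 higher and 2 lower, the synthetases 1 lower, and the transcription and replication list 0, beside 2.5% of all genes higher and 4.72% lower.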

How the data were processed

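RNA-seq counts of 11 retinal libraries were used. The authors deposited whole-number counts per Ensembl gene. The submitters' processing notes name cutadapt 1.18, STAR 2.5.0c, SAMtools 1.9, bedtools 2.26.0, HTSeq 0.6.1, DESeq2 and the build mm10. Lines that name no gene (74.6% to 79.8% of records) were left out. Among them were the 15466886 to 20692625 records per library whose alignment was not unique. The authors' deposited tables hold, per the file headers, a mean normalised count (a signal scaled by the authors), log2 fold changes and their errors, a statistic (a score), and p-values. Symbols matched 46488 of 47069 IDs.

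Counts were tested with edgeR 4.0.16 (R 4.3.3): filterByExpr (minimum count 10), TMM, 4 group means over all 11 libraries, quasi-likelihood tests, and Benjamini-Hochberg adjustment over 18188 genes at 0.05. CPM are TMM-scaled. DESeq2 1.42.0 was an alternative, beside others given below. Scripts were tested on simulated data. Genes and lists were chosen with earlier results of these data known. Named were the rRNA genes, members with adjusted p under 0.05, the highest and lowest protein gene of each comparison, and mt-Tl1 throughout because it was called in 1 comparison. In other lists at most the 2 highest and 2 lowest called genes were named. Other genes mentioned were chosen after their values were seen.

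Coordinates and sequences are from GENCODE M21 (GRCm38). Copies were sought with blastn 2.17.0 among 141730 nuclear transcripts (identity of at least 95% over at least 100 bases), since nuclear genome sequence was not used here.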

Additional observations from a re-analysis of the deposited data

How the results depend on the processing

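Alternatives changed scaling, filter, test, replicate block, denominator or 1 library at a time. Sign changes are given below, and shallow genes such as mt-Atp6, mt-Atp8, mt-Co2 and mt-Co3 are limited by their counts.

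With the DESeq2 test the genes called became 33 (genotype at P4), 3 (genotype at P8) and 1580 (age in wild type), and the nuclear subunits called became 1 at P4 and 3 with age in wild type. With no filter the genes called became 339, 447, 136 (interaction) and 2058, and 1 nuclear subunit was called at P4. Mitochondrial genes called then became 1 with age in wild type (mt-Nd5) and 3 in Kir2.1, where 3661 of all genes were called. The value of mt-Rnr2 with age in wild type turned to -0.00068. Replicate numbers did not pair the samples (correlations of same-numbered deviations from -0.12 to 0.17 between genotypes and 0.016 and 0.033 between ages in wild type). Between ages in Kir2.1 they were 0.072, 0.188 and 0.182, each the best match of its sample, which is a hint from the data and not from the design. With the replicate block the genes called were 0 and 0 between genotypes at P4 and P8, 558 with age in wild type and 2929 in Kir2.1 (798 and 3029 without it), and 0 nuclear subunits were called with age in wild type (Atp5l, adjusted p = 0.0708), mt-Nd3 there turned to 0.0044, and Twnk with age in Kir2.1 was not called (adjusted p = 0.0609). At P8 only 1 of 3 wild-type samples correlated best with the Kir2.1 sample of its own number.

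Against nuclear gene counts, protein shares were 0.893% (wild type P4), 1.07% (Kir2.1 P4) and 1.0% (wild type P8), and rRNA shares were 5.78% (wild type P4) and 5.49% (Kir2.1 P8). Without Gm42418, Gm26917 and Malat1 the protein shares were 0.923%, 1.08% and 1.02%, the rRNA shares 5.98% and 5.62%, and the tRNA share 0.0045% (wild type P4). With both of these denominators the shares not given moved by less than the SD of their group. Of uniquely aligned records, in the order wild type P4, Kir2.1 P4, wild type P8 and Kir2.1 P8, protein genes took 0.340%, 0.383%, 0.370% and 0.341%, rRNA genes 2.20%, 2.51%, 2.12% and 1.9%, and tRNA genes 0.0017%, 0.0016%, 0.0012% and 0.00099%.

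Leaving out 1 library at a time moved the genes called between 0 and 6 (genotype at P4, 6 without wild-type P4 replicate 1), 0 and 219 (genotype at P8, 219 without wild-type P8 replicate 3), 0 and 1 (interaction), 163 and 1338 (age in wild type) and 1764 and 2169 (age in Kir2.1). Mitochondrial genes called with age in Kir2.1 ranged from 0 to 1. Nuclear subunits called ranged from 13 to 30 with age in Kir2.1 and from 0 to 1 in wild type. Protein medians ranged from -0.23 to 0.054 (age in Kir2.1) from -0.49 to -0.23 (interaction) and from -0.18 to 0.087 (genotype at P8). rRNA medians ranged from -0.16 to 0.0066 (genotype at P8) and from -0.072 to 0.12 (age in wild type), and the nuclear subunit median from -0.026 to 0.084 (genotype at P8). Of single genes, mt-Nd4 crossed 0 between genotypes at P4 (-0.033 to 0.12). At P8 they were mt-Nd1 (-0.056 to 0.16), mt-Rnr2 (-0.15 to 0.023) and mt-Tl1 (-0.37 to 0.29). With age in Kir2.1 it was mt-Nd4 (-0.054 to 0.13), and in the interaction mt-Nd4 (-0.13 to 0.057). With age in wild type they were mt-Nd3 (-0.25 to 0.20), mt-Rnr1 (-0.058 to 0.13) and mt-Rnr2 (-0.086 to 0.11). The cause of these changes was not tested. Where 1 sample remained in a group, its spread was taken from the other groups.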
